A study of Sus scrofa with 226 samples.

Results

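GNA14, DIRAS3, TRARG1, OTOA, SLC66A3 and PTN, genes little described in sensory neurons, were followed across single neurons from pig dorsal root ganglia, which hold the cell bodies of sensory neurons of the body. They are 6 of the 30420 genes in the deposited table. They were chosen by their counts in these same cells, which in earlier results went with those of OSMR and IL31RA. Their higher level and joint detection in neurons with OSMR, and their correlation with both genes, therefore describe the choice and are no finding. All neurons came from 10 wild-type (WT) pigs. The animals were 11, 12, 14, 15, 17, 18 or 20 weeks old, and the neurons were recorded and collected 1, 2 or 3 days after plating, which gave 16 combinations of age and day. Neurons from cervical, thoracic and lumbar ganglia were dissociated and kept in culture, recorded by patch clamp, taken up whole with a second pipette and sequenced one by one with Smart-Seq2, a method known as Patch-seq. The study set out to find markers of mechano-insensitive C-fibres, unmyelinated fibres that do not answer to ordinary touch or pressure.

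OSMR and IL31RA encode receptor subunits for the cytokines oncostatin M and interleukin 31, which act through the kinase JAK1 and are known for their part in itch. Sensory neurons with both receptors form one class of unmyelinated neuron, which in mice also holds somatostatin (SST) and natriuretic peptide B (NPPB). The followed genes act at different places in a cell. GNA14 encodes an alpha subunit of the Gq family of G proteins, which couples receptors to phospholipase C-beta. DIRAS3 encodes a small GTPase of the Ras family that restrains growth, is imprinted in humans and is missing from mice and rats. TRARG1 encodes a membrane protein that takes part in the traffic of the glucose transporter GLUT4 in fat cells. SLC66A3 encodes a membrane protein with PQ-loop motifs. OTOA encodes otoancorin, which attaches the tectorial membrane to the spiral limbus and other non-sensory cells of the inner ear. PTN encodes pleiotrophin, a secreted growth factor that binds heparin and the receptors PTPRZ1 and ALK.

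In counts per 1000000 (CPM), a neuron was called OSMR-positive at 50 CPM of OSMR or more and OSMR-low below that, which gave 66 OSMR-positive neurons from 10 animals and 160 OSMR-low neurons from the same 10. CPM is a gene's count scaled to a total of 1000000 counts in its own cell. It does not correct for gene length, so levels are compared here within a gene and not between genes. Among OSMR-low neurons, 88.1% had at least 50 CPM of ADCYAP1, a neuropeptide gene of peptidergic neurons, 4 neurons had TRPM8, the cold receptor gene, without ADCYAP1, and 15 had neither. Of other markers of peptidergic neurons, TAC1 had a median of 6952 CPM in OSMR-positive and 3923 CPM in OSMR-low neurons. TRPA1 had 3.06 and 10.6 CPM. These genes did not go one way, so neither class is called peptidergic here. Total counts per neuron ran from 109726 to 5506278 with a median of 740524.5. Median totals were 782466 in OSMR-positive and 729586 in OSMR-low neurons. The 66 OSMR-positive neurons matched their label by markers: IL31RA had a median of 665 CPM against 4.08 in OSMR-low neurons, SST 152.8 against 6.39, NPPB 874 against 235, JAK1 1246 against 156.6 and CYSLTR2 32.2 against 0. Of the 8 sensory neuron markers checked, 7 had a median above 0 in both groups, and RBFOX3 was the one at 0. Macrophage markers summed to a median of 23.3 CPM in OSMR-positive and 55.6 CPM in OSMR-low neurons, and they passed 500 CPM in 4 and 15 neurons.

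GNA14, the G protein subunit, was detected in nearly all OSMR-positive neurons and in few others. Detected here means at least 20 CPM in a neuron. It was detected in 60 of 66 OSMR-positive neurons (90.9%, exact 95% binomial interval 81.3 to 96.6%) and in 22 of 160 OSMR-low neurons (13.8%, 8.82 to 20.1%). Binomial intervals cover counting error only. Over animals the share was 93.1% ± 7.86 (SD, n = 10) in OSMR-positive and 12.9% ± 8.36 (SD, n = 10) in OSMR-low neurons, and the 2 ranges, 80 to 100% and 0 to 26.3%, did not overlap. The median level was 116.9 CPM in OSMR-positive and 0 CPM in OSMR-low neurons. When counts were summed per animal, the OSMR-positive sums of 8 animals with both classes ran from 71.4 through a median of 128.97 to 176.1 CPM, and the OSMR-low sums from 0.887 through 10.6 to 23.9 CPM. The sums of the 2 classes did not overlap. Here and for the other followed genes below, a lack of overlap describes the choice of the genes. The share of all genes without overlap is not given here. The fitted difference was 3.91 ± 0.44 (SE) on the log2 scale, in the same direction in 8 of 8 animals. In this comparison 2.11% of 23991 genes tested were called higher in OSMR-positive neurons and 2.61% lower (edgeR's quasi-likelihood test, Benjamini-Hochberg adjusted p under 0.05). The median difference over all genes tested was -0.07 on the log2 scale.

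DIRAS3, the small GTPase, and TRARG1, the trafficking protein, were also present in nearly every OSMR-positive neuron, but each reached further into OSMR-low neurons than GNA14 did. DIRAS3 was detected in 65 of 66 OSMR-positive (98.5%, 91.8 to 100%) and 61 of 160 OSMR-low neurons (38.1%, 30.6 to 46.1%). Its median level was 472 CPM against 9.51 CPM. Per animal its sums were 305, 471 and 682 CPM (lowest, median and highest of 8) in OSMR-positive and 39.9, 104.9 and 143.02 CPM in OSMR-low neurons. These ranges did not overlap, and the fitted difference of DIRAS3 was 2.39 ± 0.23 (SE) on the log2 scale. TRARG1 was detected in 63 of 66 (95.5%, 87.3 to 99.1%) and 41 of 160 neurons (25.6%, 19.1 to 33.1%), with medians of 200 and 4.17 CPM. Its sums per animal were 131.7, 188.4 and 377 CPM against 5.58, 18.1 and 68.5 CPM, again without overlap, and the fitted difference of TRARG1 was 3.54 ± 0.32 (SE) on the log2 scale. Animals differed in how often OSMR-low neurons had these genes, from 17.9 to 60% for DIRAS3 and from 0 to 56% for TRARG1.

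SLC66A3, the PQ-loop protein, was detected in most OSMR-positive neurons and in many OSMR-low neurons. It was detected in 57 of 66 OSMR-positive (86.4%, 75.7 to 93.6%) and 74 of 160 OSMR-low neurons (46.3%, 38.3 to 54.3%), and the share was higher in OSMR-positive neurons in 8 of 10 animals. The difference in share depended on the level that counts as detected, from 21.8 percentage points at 5 CPM to 60.2 at 50 CPM. The median level was 273 CPM against 16.7 CPM and was higher in OSMR-positive neurons in 10 of 10 animals. Sums per animal were 222.1, 303 and 368 CPM against 26.9, 33.4 and 50.8 CPM, with no overlap, and the fitted difference of SLC66A3 was 3.03 ± 0.20 (SE) on the log2 scale.

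PTN, the secreted growth factor, was present in almost all neurons of both classes and was higher in those with OSMR. It was detected in 66 of 66 OSMR-positive neurons and in 91.9% of the 160 OSMR-low neurons (86.5 to 95.6%). Its median level was 1195 CPM against 269 CPM. Sums per animal were 758, 974 and 1709 CPM against 222.5, 313 and 632 CPM, which did not overlap, and the fitted difference of 1.72 ± 0.13 (SE) on the log2 scale was the smallest of the 6. The difference varied little between animals, from 1.45 to 2.15 on the log2 scale.

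OTOA, the gene of otoancorin, was near the limit of detection in both classes. It was detected in 11 of 66 OSMR-positive (16.7%, 8.62 to 27.9%) and 3 of 160 OSMR-low neurons (1.88%, 0.388 to 5.38%). The difference in share of OTOA was 40.5 percentage points with detection from 5 CPM and 3.03 from 50 CPM. At least 1 count was present in 45 of 66 and 35 of 160 neurons. Sums per animal were 0.674, 8.47 and 28.2 CPM against 0.151, 1.74 and 3.01 CPM. The ranges overlapped, and the OSMR-positive sum was the higher one in 7 of 8 animals. The fitted difference of OTOA was 2.58 ± 0.61 (SE) on the log2 scale. All 6 followed genes passed the filter on low counts, OTOA through its OSMR-positive sums for the most part.

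**Figure D1:**
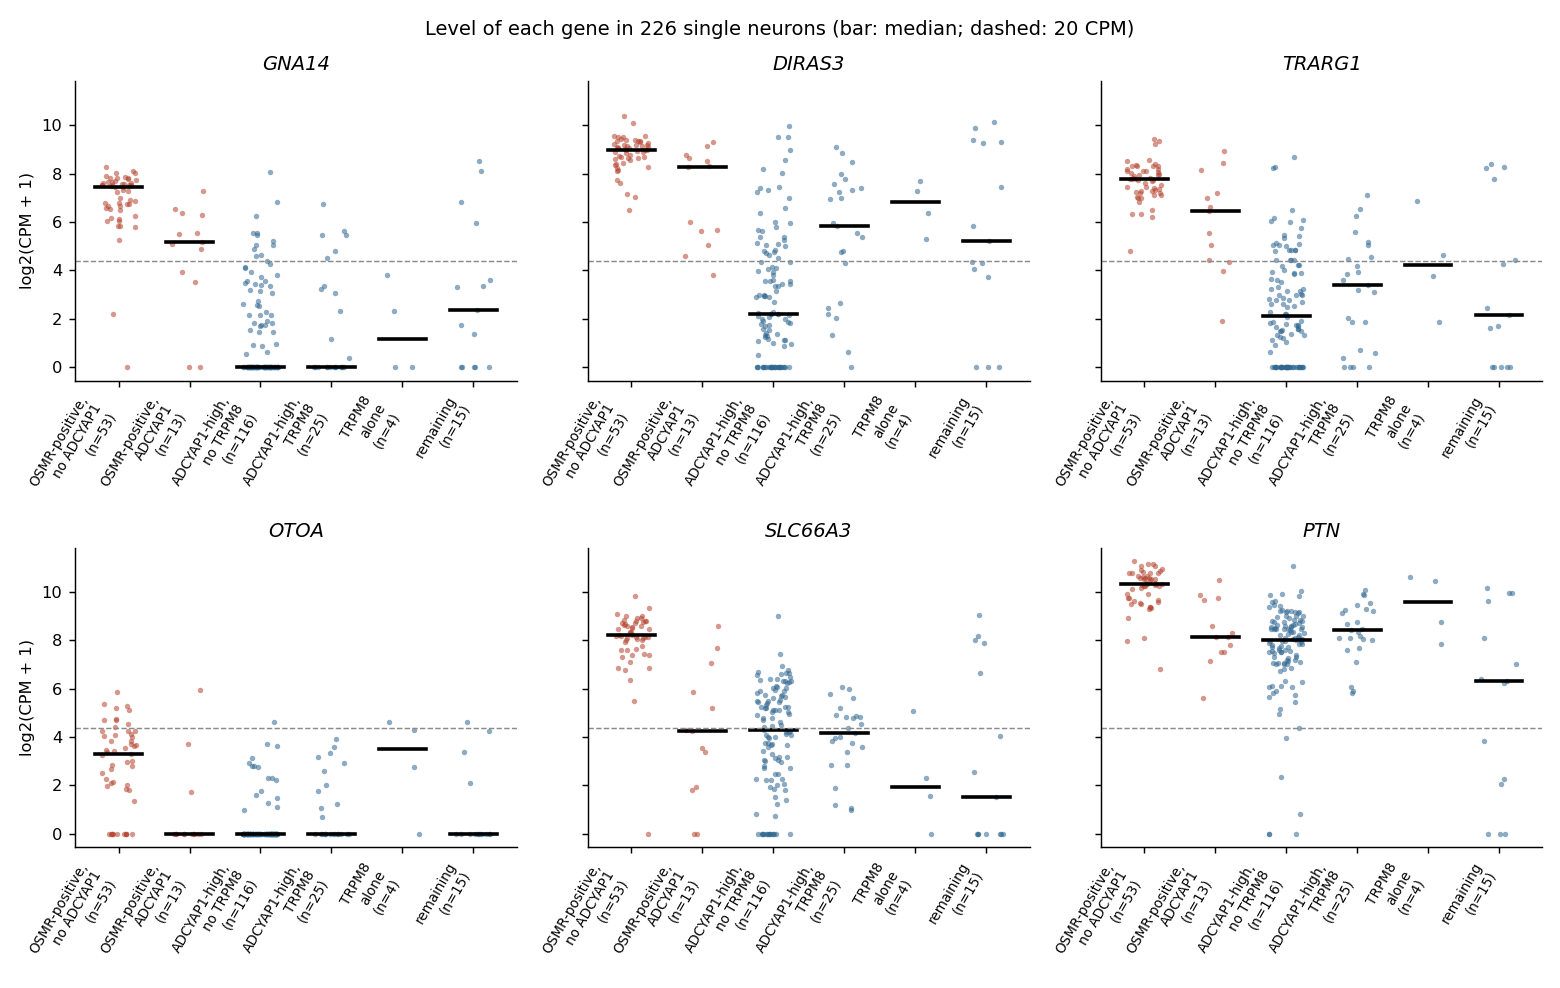
Level of each of the 6 genes in single neurons, as log2(CPM + 1), by class (x axis, n neurons below each name); each point is 1 neuron, black bars are medians and the dashed line marks 20 CPM. GNA14 has a median of 171.04 CPM in the 53 OSMR-positive neurons without ADCYAP1 and 0 CPM in ADCYAP1-high neurons, while PTN lies above 20 CPM in most neurons of each class.

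**Figure D2:**
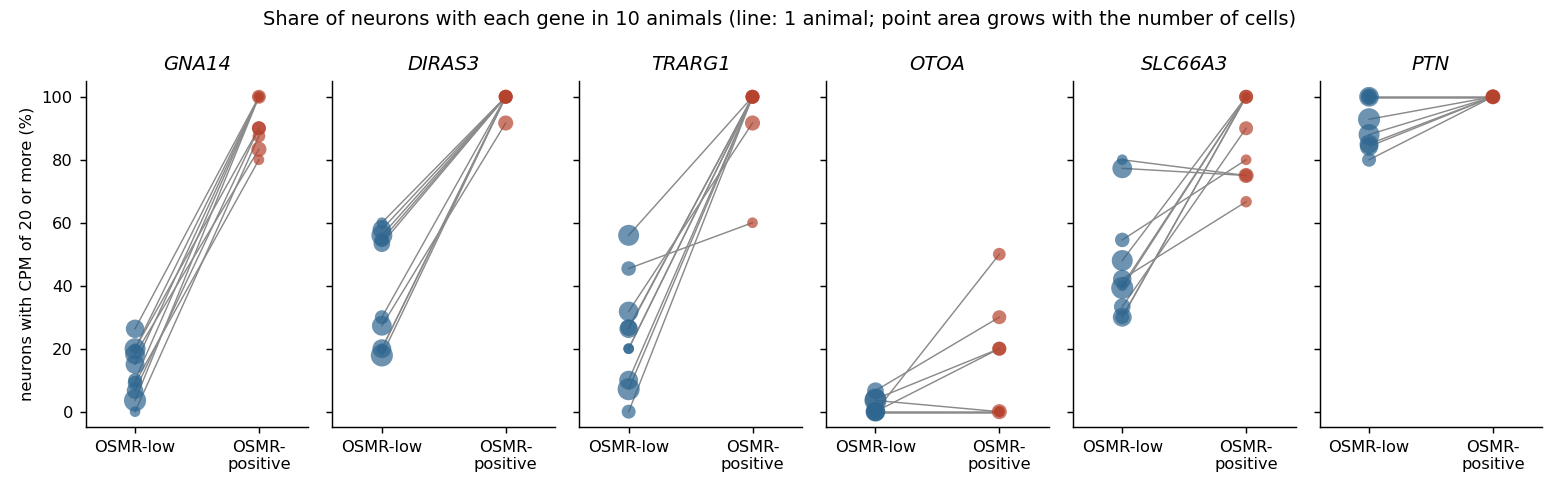
Share of neurons (%) with at least 20 CPM of each gene in OSMR-low (blue) and OSMR-positive (red) neurons; each line joins the 2 classes of 1 of 10 animals and the area of a point grows with its number of neurons. For GNA14, DIRAS3 and TRARG1 all 10 lines slope up, for SLC66A3 8 do, and for OTOA 5 animals have equal shares.

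The genes occurred together in the same neurons, which follows from their choice as genes that went with OSMR in these cells. With OTOA left aside because it was so often undetected, all 5 other genes were detected in 54 of 66 OSMR-positive neurons (81.8%) and in 9 of 160 OSMR-low neurons (5.63%). At least 4 of the 5 were detected in 61 of 66 and in 23 of 160 neurons. An OSMR-low neuron of animal 5 at 1 day, singled out after its values were seen, had 0 CPM of OSMR but 725 CPM of IL31RA, with GNA14 at 112.97, DIRAS3 at 612, TRARG1 at 297, SLC66A3 at 256 and PTN at 981 CPM. This neuron had 168183 counts in all, against a median of 740524.5 over all neurons. Whether OSMR was missed at that depth was not tested. Among OSMR-low neurons at large, those with at least 50 CPM of IL31RA had SLC66A3 detected in 22 of 33 neurons (66.7%), against 52 neurons (40.9%) of those without IL31RA. GNA14 was detected in 6 of the 33 (18.2%) and in 16 neurons (12.6%) of those without IL31RA.

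The threshold of 50 CPM cut through a gradual change for some of the genes. In the 9 neurons just inside it, with 50 to 100 CPM of OSMR, median levels were 33 CPM for GNA14, 49.7 CPM for DIRAS3, 87.6 CPM for TRARG1, 0 CPM for OTOA, 18.3 CPM for SLC66A3 and 223.8 CPM for PTN. In the 24 neurons just outside it, with 20 to 50 CPM, they were 3.47, 41.9, 17.4, 0, 24.9 and 287 CPM in the same order. In the 57 neurons with at least 100 CPM they were 155.1, 486, 212.5, 8.69, 289 and 1268 CPM. For DIRAS3, SLC66A3 and PTN the neurons on the 2 sides of the threshold thus had similar medians. Their higher medians were those of the neurons with at least 100 CPM of OSMR.

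OSMR-positive neurons were not uniform. Of the 66, 13 neurons from 6 animals also had at least 50 CPM of ADCYAP1, a split chosen after the data had been seen. SLC66A3 had a median of 18.3 CPM in these 13 and 293 CPM in the other 53, and PTN 283 against 1270 CPM. GNA14 had 35 against 171.04 CPM, TRARG1 87.6 against 215.7 CPM, OTOA 0 against 8.83 CPM and DIRAS3 312 against 508 CPM. The levels of SLC66A3 and PTN in the 13 were close to those of the ADCYAP1-high neurons without OSMR, 18.0 and 271 CPM, and those of DIRAS3 were not, at 6.70 CPM. The 13 neurons also had lower OSMR (90 against 340 CPM), lower IL31RA (124.9 against 785 CPM) and fewer counts in all (median total 357120 against 885411). Their macrophage markers summed to a median of 275 CPM, against 17.4 CPM in the 53, and passed 500 CPM in 2 neurons of each group. Their satellite glia markers summed to 262 against 54.5 CPM. The part of these in the lower levels was not tested.

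ADCYAP1-high neurons without OSMR were divided by TRPM8, a split also chosen after the data had been seen. DIRAS3 was detected in 17 of 25 neurons with at least 50 CPM of TRPM8 (68%, 46.5 to 85.1%) and in 32 neurons without it (27.6%, 19.7 to 36.7%), with medians of 56.4 and 3.64 CPM. The sums of 8 animals with both kinds ran from 1.63 to 296 CPM with TRPM8 and from 7.74 to 125.7 CPM without, so they overlapped, and DIRAS3 was higher with TRPM8 in 6 of 8 animals. The fitted difference of 1.49 ± 0.73 (SE) on the log2 scale did not pass the test (edgeR adjusted p = 0.831). SLC66A3 went the other way, lower with TRPM8 in 6 of 8 animals with a fitted difference of -0.999 ± 0.43 (SE; edgeR adjusted p = 0.795). The other 4 lay between 0.48 for PTN and 1.89 for OTOA, none past the threshold. Of 19438 genes tested 0.0154% were called in this comparison, 0.0103% higher, TRPM8 itself among them, and 0.00514% lower, and the median difference over all genes was -0.21 on the log2 scale.

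Across single neurons within an animal, the counts of the 6 genes varied with OSMR. They had been chosen for going with OSMR and IL31RA in these cells, so the values over all neurons describe that choice. Spearman's rho with OSMR, averaged over 9 animals with at least 8 neurons, was 0.66 ± 0.15 (SD) for TRARG1, 0.62 ± 0.18 for GNA14, 0.55 ± 0.14 for DIRAS3, 0.50 ± 0.22 for SLC66A3, 0.42 ± 0.35 for OTOA and 0.42 ± 0.30 for PTN. The rank correlation was positive in 9 of 9 animals for the first 4 and in 8 of 9 for OTOA and PTN. With IL31RA the mean rho was 0.54 for GNA14, 0.53 for SLC66A3, 0.48 for TRARG1, 0.47 for DIRAS3, 0.43 for PTN and 0.34 for OTOA. Neighbours in both orders differed by less than their SD over animals. The points of such a correlation share a library preparation, and each cell's depth enters every gene, so the values describe these cells and carry no p.

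Within a class the mean correlation with OSMR is given gene by gene, and differences between genes were not tested. Within OSMR-positive neurons (7 animals with at least 4 such neurons) the mean rho with OSMR was 0.58 ± 0.37 for PTN, 0.55 ± 0.29 for GNA14 and 0.51 ± 0.32 for SLC66A3, 0.39 ± 0.36 for OTOA, 0.27 ± 0.39 for TRARG1 and 0.18 ± 0.56 for DIRAS3. After the 13 neurons with ADCYAP1 were left out, OTOA had 0.47 ± 0.23 and GNA14 0.42 ± 0.21, each positive in 6 of 6 animals, and PTN 0.44 ± 0.49, positive in 5 of 6. SLC66A3 had 0.23 ± 0.30, DIRAS3 -0.03 ± 0.43 and TRARG1 -0.02 ± 0.35. Within OSMR-low neurons (8 animals) TRARG1 had the highest value, 0.41 ± 0.17, positive in 8 of 8 animals, and PTN had -0.07 ± 0.27. The closest pair among the followed genes within OSMR-positive neurons was SLC66A3 and PTN, with a mean rho of 0.67, and over all neurons DIRAS3 and TRARG1, with 0.65.

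**Figure D3:**
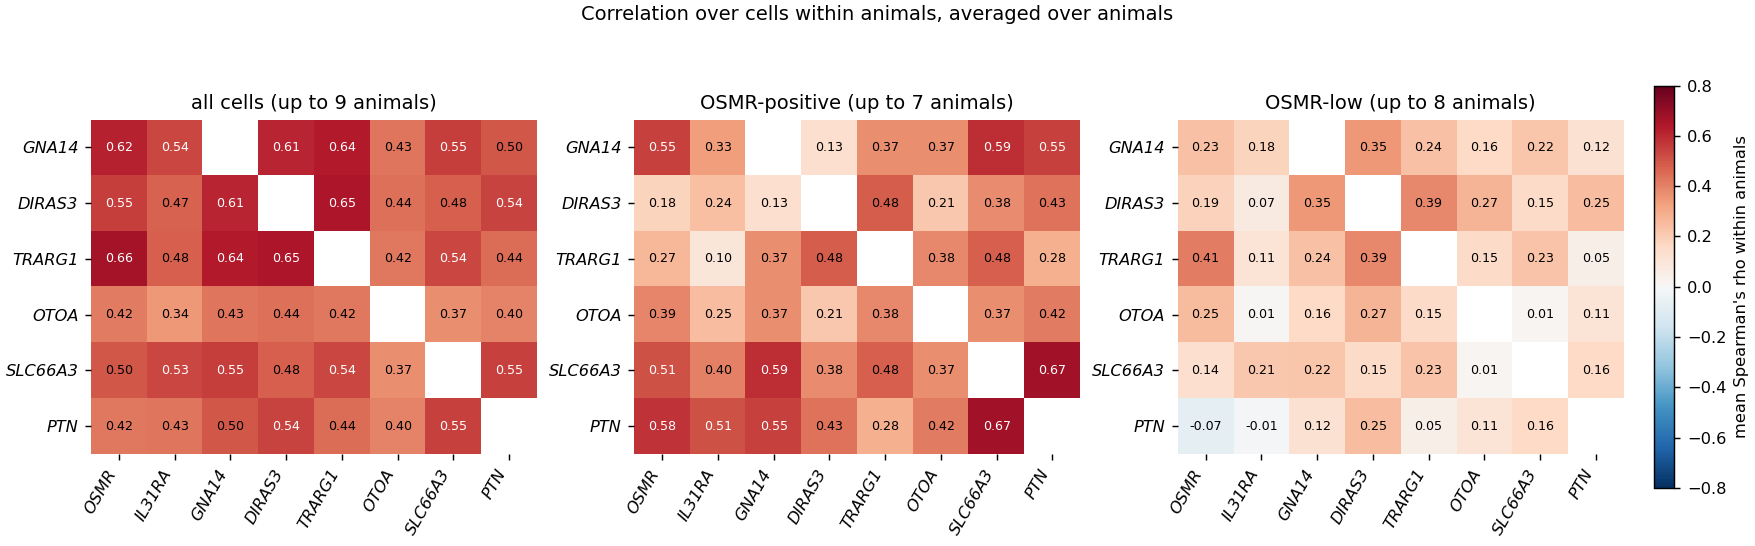
Mean Spearman's rho over animals between each of the 6 genes (rows) and OSMR, IL31RA and the 6 genes (columns), computed over cells within each animal, for all cells, OSMR-positive cells and OSMR-low cells; red is positive, blue negative, and the diagonal is left blank. Values with OSMR lie between 0.42 and 0.66 over all cells and between -0.07 and 0.41 over OSMR-low cells.

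Among 7346 genes detected in at least 10% of neurons, the gene closest to TRARG1 by mean within-animal rho over all neurons of 9 animals was OSMR itself (0.66), followed by DIRAS3 (0.65) and GNA14 (0.64). For GNA14 the 3 closest were TMEM45B (0.66), PDLIM2 (0.66) and TRARG1 (0.64), with OSMR at rank 6. For DIRAS3 they were TRARG1 (0.65), CCDC60 (0.62) and GNA14 (0.61), with OSMR at rank 14. GNA14, DIRAS3 and TRARG1 therefore stood near one another. The other genes had different neighbours. The 3 closest to SLC66A3 were PCSK2, which encodes the prohormone convertase of peptide processing (0.65), FSTL1 (0.64) and STARD3NL (0.63), with IL31RA at rank 39 and OSMR at rank 65. Those of PTN were JAK1, the kinase of the OSMR receptor (0.64), TMEM59 (0.61) and FSTL1 (0.60), with OSMR further down than for the other 5. Those of OTOA were GRIK1, a kainate receptor subunit (0.56), GPX2 (0.55) and SLC8A1, a sodium-calcium exchanger (0.55), with OSMR at rank 65.

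The genes that work with the 6 were taken from lists drawn up for each of them and read from the same comparison of 18 sums, where 4.72% of all 23991 genes were called in either direction. The lists were drawn up with earlier results of these data known. Of 17 Gq signalling genes, 2 were higher in OSMR-positive neurons, 1 was lower and 14 did not pass. PLCB3 encodes one of the phospholipases C-beta on which Gq subunits act. Its sums were 5.31, 10.5 and 25.7 CPM (lowest, median and highest of 8 animals) against 0.681, 1.96 and 4.79 CPM. The log2 difference of PLCB3 was 2.47 ± 0.36 (SE, edgeR adjusted p = 0.000349). In both classes its median sum was below the level that counts as detected in a neuron. The ranges of PLCB3 did not overlap, but the share of all genes without overlap is not given here. Of the other phospholipases C-beta, PLCB1 (-1.66 ± 0.55, edgeR adjusted p = 0.111), PLCB2 (-0.61 ± 1.07, edgeR adjusted p = 0.877) and PLCB4 (0.14 ± 0.30, edgeR adjusted p = 0.903) did not pass. RGS4, which shortens the active state of Gq subunits, had 1056, 1392 and 2242 CPM against 90.9, 313 and 786 CPM (2.29 ± 0.32, edgeR adjusted p = 0.000261). PRKCD, a protein kinase C, was lower at -1.72 ± 0.36 (edgeR adjusted p = 0.00796). The median difference of the 17 genes was 0.02 on the log2 scale.

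Of 21 Gq-coupled receptor genes tested, 1 was higher, 3 were lower and 17 did not pass, with a median of -0.27 on the log2 scale. The one that was higher, CYSLTR2, a receptor for cysteinyl leukotrienes, had 25.5, 51.5 and 72.8 CPM against 0.967, 2.35 and 4.62 CPM (4.46 ± 0.33 SE, edgeR adjusted p = 2.41e-07). CYSLTR2 was read above as a marker of the class, so its difference is no separate finding. The prokineticin receptor gene PROKR2 (-4.22 ± 0.46, edgeR adjusted p = 1.95e-05), the angiotensin receptor gene AGTR1 (-3.11 ± 0.48, edgeR adjusted p = 0.00056) and the bradykinin receptor gene BDKRB2 (-2.38 ± 0.53, edgeR adjusted p = 0.0126) were lower, each in 8 of 8 animals. BDKRB2 was low in both classes, with sums of 0 to 6.74 CPM against 0.151 to 10.1 CPM, which overlapped.

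In the signalling list of OSMR and IL31RA, 14 genes were tested besides OSMR, 2 of them higher and 2 lower, with a median of -0.02 on the log2 scale. IL31RA differed by 4.35 ± 0.32 (edgeR adjusted p = 2.41e-07) and JAK1 by 2.65 ± 0.21 (edgeR adjusted p = 5.78e-07). IL6ST, the gp130 subunit that OSMR pairs with for oncostatin M, was lower by -1.61 ± 0.24 (edgeR adjusted p = 0.000494) and IL13RA1 by -1.53 ± 0.29 (edgeR adjusted p = 0.00356), each in 8 of 8 animals with overlapping ranges. Of 11 partners of pleiotrophin tested, the phosphatase receptor gene PTPRS (1.01 ± 0.28, edgeR adjusted p = 0.0434) and the integrin gene ITGAV (0.71 ± 0.20, edgeR adjusted p = 0.0479) were higher, and NRP1 (-1.60 ± 0.41, edgeR adjusted p = 0.0303) and ITGB3 (-1.26 ± 0.32, edgeR adjusted p = 0.0315) lower. Their median was 0.31 on the log2 scale. Of 9 small GTPase genes related to DIRAS3, RASL11B was lower (-2.10 ± 0.36, edgeR adjusted p = 0.00155) and 8 did not pass. Among 9 genes of TRARG1 and glucose transporter traffic, 5 relatives of otoancorin or tectorial membrane genes and 5 PQ-loop transporter genes, 0 passed in either direction. Their medians were 0.11, 0.40 and 0.15 on the log2 scale.

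Time in culture took no part in the choice of the genes. In OSMR-positive neurons, levels at 2 days were compared with those at 1 day in 5 animals that had both, and no difference was detected. The fitted differences, 2 days minus 1 day, were -0.00 ± 0.41 (SE) for GNA14, -0.09 ± 0.31 for DIRAS3, -0.14 ± 0.42 for TRARG1, 0.07 ± 1.03 for OTOA and -0.12 ± 0.29 for PTN on the log2 scale. SLC66A3 had -0.80 ± 0.80, and one animal set that value. In animal 5 its 2-day sum of 2 neurons held 0 counts, against 293 CPM at 1 day, while in animals 1, 4, 7 and 9 the change was from 303 to 312, 228 to 413, 415 to 194.9 and 284 to 339 CPM. Without animal 5 the difference of SLC66A3 was -0.08. None of the 6 passed the test (edgeR adjusted p = 1 for each), and of 19722 genes 0% were called, with 1.09% at an unadjusted p under 0.05 and 0.0761% called by DESeq2. In OSMR-low neurons of 8 animals the largest differences were -1.26 ± 0.68 for GNA14 and 0.83 ± 0.62 for TRARG1, and none passed (edgeR adjusted p = 1 for each, 0% of 22150 genes called, 2.78% at an unadjusted p under 0.05 and 0.122% called by DESeq2).

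The fitted slope of PTN with age was below 0 in both classes and did not pass the test over all genes in either. At 1 day in culture its OSMR-positive sums were 1563 and 1688 CPM in the 2 animals of 11 weeks, 1049 CPM at 14 weeks, 884 CPM at 15 weeks, 733 CPM at 17 weeks and 928 CPM at 18 weeks. The 2 youngest animals were thus the highest, and the sums did not fall at each later age. The slope was -0.18 ± 0.05 (SE) per week on the log2 scale over 6 animals (unadjusted p = 0.00303 and adjusted p = 0.867 by edgeR; adjusted p = 0.26 by DESeq2). In OSMR-low neurons of 10 animals PTN was 631 and 515 CPM at 11 weeks, 338 CPM at 12, 237 CPM at 14, 282 and 439 CPM at 15, 337 CPM at 17, 323 and 264 CPM at 18 and 132.9 CPM at 20 weeks. The slope there was -0.17 ± 0.05 per week (unadjusted p = 0.00516 and adjusted p = 0.479 by edgeR). The 2 slopes share animals and are not independent. The OSMR-positive slope of PTN stayed between -0.25 and -0.15 per week when each animal was left out in turn, and the OSMR-low slope between -0.19 and -0.13.

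The slopes of the other 5 genes in OSMR-positive neurons were -0.24 ± 0.11 per week for OTOA, -0.10 ± 0.06 for DIRAS3, -0.01 ± 0.06 for GNA14, 0.03 ± 0.05 for SLC66A3 and 0.12 ± 0.07 for TRARG1 (edgeR adjusted p from 0.867 to 0.991). None of these 5 had a slope in OSMR-low neurons past the threshold either. At 1 day 0% of 14650 genes were called for age in OSMR-positive neurons and 0% of 18869 in OSMR-low neurons, with 5.55% and 6.87% at an unadjusted p under 0.05. DESeq2 called 0.126% and 0.657%. Age belongs to the animal. In OSMR-positive neurons each age but 11 weeks rested on 1 animal, and in OSMR-low neurons each but 11, 15 and 18 weeks. Each animal had 1 age, so age and animal cannot be told apart.

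**Figure D4:**
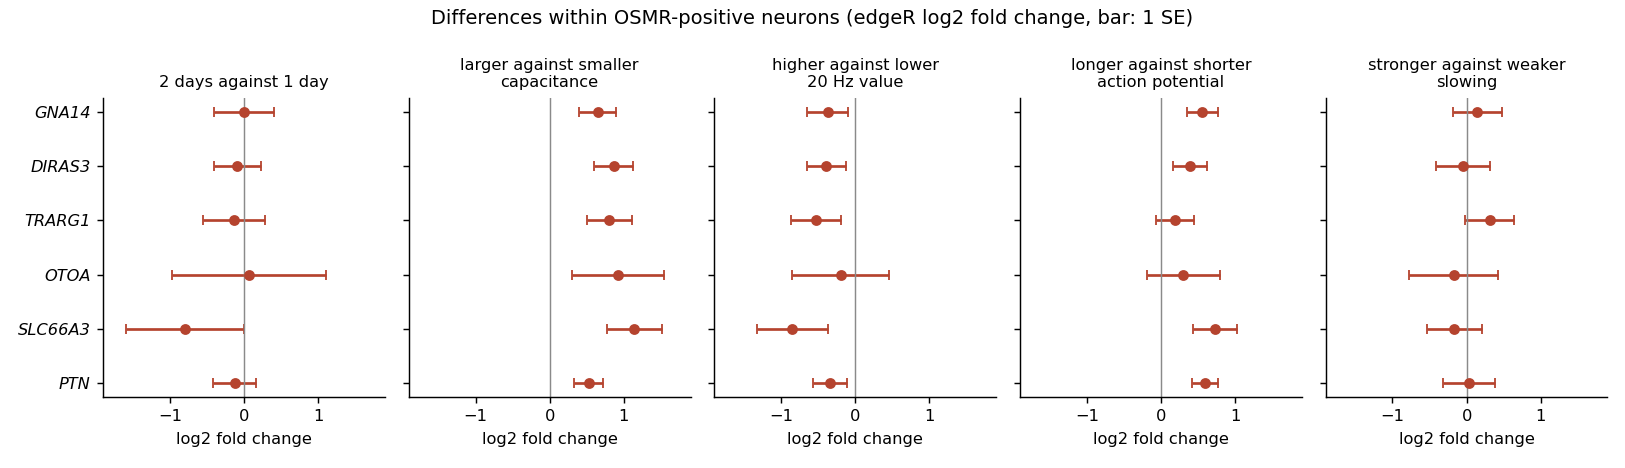
Differences of the 6 genes within OSMR-positive neurons, as edgeR log2 fold changes (x axis) with 1 SE as bars, for day in culture, capacitance, 20 Hz value, action potential duration and activity-dependent slowing. No value passed the test over all genes. The values for capacitance all lie above 0, between 0.53 for PTN and 1.14 for SLC66A3, and those for the 20 Hz value below 0.

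Each neuron came with recorded values, whose units the files do not state. Cell capacitance, which grows with the membrane area, was larger in OSMR-positive neurons, with a median of 99.9 against 52.7, and the value recorded for stimulation at 20 Hz was lower, with a median of 10 against 20. Over all neurons the 6 genes followed both. Mean rho with capacitance was between 0.33 for TRARG1 and 0.44 for DIRAS3, positive in 9 of 9 animals for each gene, and mean rho with the 20 Hz value was between -0.46 for SLC66A3 and -0.39 for TRARG1, negative in 9 of 9 animals for each. With action potential duration it was between 0.26 for OTOA and 0.37 for SLC66A3 and TRARG1. In OSMR-low neurons alone these values lay nearer to 0, between 0.01 and 0.15 for capacitance and between -0.15 and 0.02 for the 20 Hz value.

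To keep the class difference out, OSMR-positive neurons were split within each animal at their own median capacitance. In 7 animals with 61 neurons the 6 genes were higher in the larger neurons by 0.87 ± 0.26 (SE) for DIRAS3, 1.14 ± 0.38 for SLC66A3, 0.80 ± 0.30 for TRARG1, 0.65 ± 0.25 for GNA14, 0.53 ± 0.19 for PTN and 0.92 ± 0.63 for OTOA on the log2 scale. DIRAS3 was 242 to 506 CPM in the smaller and 307 to 946 CPM in the larger neurons over animals, ranges that overlapped, and it was higher in the larger neurons in 7 of 7 animals. SLC66A3, GNA14 and PTN were higher in 6 of 7, and TRARG1 and OTOA in 5 of 7. OSMR itself was higher in 5 of 7 animals, with a median difference of 0.52. None of the 6 passed the test (edgeR adjusted p = 0.591 for all but OTOA, which had 0.692), and 0% of 18411 genes were called, with 8.14% at an unadjusted p under 0.05 and 0.352% called by DESeq2. With no filter on low counts, 0.251% of 27881 genes were called. SLC66A3 was the only one of the 6 among them, at 1.15 (edgeR adjusted p = 0.0246).

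The 13 OSMR-positive neurons with ADCYAP1 were smaller than the others, with a median capacitance of 68.8 against 112.3. Without them the differences by capacitance were 0.11 for DIRAS3, 0.01 for SLC66A3, 0.13 for TRARG1, -0.05 for GNA14, -0.14 for PTN and 0.36 for OTOA. The differences in OSMR-low neurons, split the same way in 10 animals, were between 0.02 for OTOA and 0.68 for GNA14, none past the threshold (edgeR adjusted p from 0.995 to 0.998, 0% of 21035 genes called, 4.3% at an unadjusted p under 0.05 and 0.151% called by DESeq2).

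**Figure D5:**
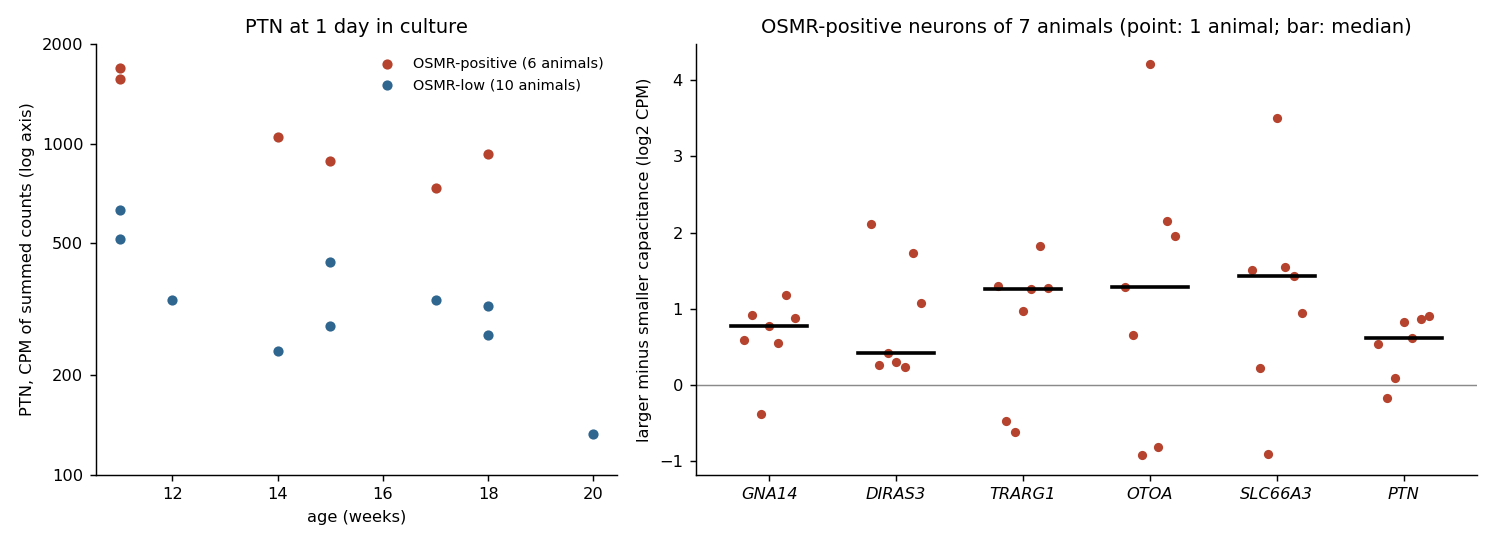
Left, PTN at 1 day in culture as CPM of summed counts (log axis) against age in weeks, each point 1 animal, in OSMR-positive (red) and OSMR-low (blue) neurons; the 2 animals of 11 weeks are the highest of each class. Right, difference between OSMR-positive neurons of larger and smaller capacitance in 7 animals, in log2 CPM, with the median as a bar; DIRAS3 is above 0 in 7 of 7 animals.

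The split by the 20 Hz value, in 6 animals with 56 neurons, gave fitted differences below 0 for the neurons with higher values, from -0.85 ± 0.48 (SE) for SLC66A3 through -0.53 ± 0.34 for TRARG1, -0.39 ± 0.26 for DIRAS3, -0.37 ± 0.28 for GNA14 and -0.35 ± 0.23 for PTN to -0.20 ± 0.65 for OTOA on the log2 scale. DIRAS3 was lower in 6 of 6 animals, PTN in 5 of 6, and GNA14, TRARG1 and SLC66A3 in 4 of 6. OTOA was lower in 3 of 6, with a median difference of 0.20. None passed (edgeR adjusted p from 0.938 to 0.985, 0% of 18955 genes called, 4.85% at an unadjusted p under 0.05 and 0.0858% called by DESeq2). The neurons with ADCYAP1 had a median 20 Hz value of 20 against 8 in the others, and without them all 6 differences were above 0, between 0.03 for TRARG1 and 0.26 for OTOA. With OSMR-positive set at 20 CPM, 4 of the 6 were above 0, from 0.0018 for GNA14 to 0.53 for OTOA.

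For action potential duration, in 7 animals with 61 neurons, GNA14 was higher in the neurons with longer action potentials in 7 of 7 animals. Its sums were 75.5 to 155.3 CPM with shorter and 68.1 to 206.6 CPM with longer action potentials, so the ranges overlapped, and the fitted difference of GNA14 was 0.56 ± 0.21 (SE) on the log2 scale (unadjusted p = 0.0164, adjusted p = 0.641, edgeR). PTN differed by 0.60 ± 0.17, higher in 6 of 7 animals (unadjusted p = 0.0036, adjusted p = 0.546, edgeR), SLC66A3 by 0.73 ± 0.30, DIRAS3 by 0.39 ± 0.23, OTOA by 0.30 ± 0.50 and TRARG1 by 0.19 ± 0.26. SLC66A3, DIRAS3 and OTOA were each higher in 4 of 7 animals. TRARG1 was higher in 3 of 7, with a median difference of -0.02. Of 18523 genes 0% were called, with 6.76% at an unadjusted p under 0.05 and 0.422% called by DESeq2. Without the neurons with ADCYAP1 the differences were 0.24 for GNA14 and 0.25 for PTN. Activity-dependent slowing, the loss of conduction speed during repeated firing that marks mechano-insensitive fibres, could be split in 4 animals with 38 neurons. The 6 differences lay between -0.18 ± 0.60 for OTOA and 0.31 ± 0.33 for TRARG1, and 0% of 16366 genes were called, with 2.79% at an unadjusted p under 0.05 and 0.0367% called by DESeq2 (edgeR adjusted p = 0.999 for each of the 6).

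Of the marker lists of other cell types, the Schwann cell, fibroblast and endothelial lists were higher in OSMR-positive neurons and the satellite glia and macrophage lists lower. The summed level of 8 Schwann cell markers had a median of 1434 CPM in OSMR-positive and 918 CPM in OSMR-low neurons. PMP22 (941 against 470 CPM), SCN7A (303 against 202.9 CPM) and NCAM1 (121.1 against 108.9 CPM), which neurons can also express, made up most of that sum, while MBP, PRX and EGFL8 had medians of 0 CPM in both classes. Satellite glia markers summed to 72.6 against 227.2 CPM and endothelial markers to 4.41 against 1.5 CPM. Fibroblast markers summed to 33.5 against 10.9 CPM, with DCN at 19.4 against 0 CPM and the other 5 fibroblast markers at medians of 0 CPM in both classes. The part of these markers in the levels of the 6 genes was not tested.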

How the data were processed

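Single neurons were sequenced with Smart-Seq2, per the labels' protocols. Reads were demultiplexed with bcl2fastq 2.20, per the submitters' processing notes; which aligner, counting tool, genome build and annotation were used is not given in the sources used here. The deposited gene table holds estimated counts, not scaled to library size, of which 52.1% of the values above 0 were not whole. The deposited cell table holds other recorded values, 1 per cell, with no units, and 43 of its lines were not used. Each neuron was taken up by pipette on its own, so doublets were not called. Reads carry no molecular identifiers and no strand: in RefSeq (Sscrofa11.1) 2 annotated genes overlap GNA14, 1 overlaps TRARG1 and 2 overlap PTN, and their reads cannot be told apart. Identifiers were paired with symbols for 14867 of 30420 genes.

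Replicates were animals. The animal named for each cell pairs the sums compared and was the block of each fit but those on age; replicate numbers in the sample titles number cells and pair nothing. Estimated counts were summed over at least 2 cells per animal and class and rounded. Fits used edgeR 4.0.16 (quasi-likelihood, TMM, filterByExpr, Benjamini-Hochberg over all genes tested, 0.05) in R 4.3.3, with DESeq2 1.42.0 and limma 3.58.1 as alternatives. The edgeR fits were tested on simulated data for all comparisons but the OSMR-low ones of day, age and capacitance. Correlations were computed with Python 3.11.15 and pandas 2.3.3. The 6 genes and all lists were chosen with earlier results of these data known. Named genes were the 6, the class markers, the 3 genes closest to each of the 6 and up to 4 genes a list that passed. Alternatives tried were other scalings, filters, tests, OSMR thresholds, days and cells, and each animal left out.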

Additional observations from a re-analysis of the deposited data

How the results depend on the processing

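The limits are those of few cells and animals. OTOA had low sums, and its sign turned under several settings. A sum held as few as 2 cells. Fits within OSMR-positive neurons had between 3 and 6 residual degrees of freedom, and outside the age slopes the SE of the 6 genes ran from 0.17 to 1.03 on the log2 scale. After adjustment over all genes, differences well above these SE were not detectable either, so a gene that did not pass is not shown to be alike.

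The share of genes called moved by over 1.5 times as follows, and the cause was not tested. Between the classes it was 9.75% by DESeq2, 1.26% with OSMR-positive set at 20 CPM and 2.41% at 1 day alone. By DESeq2 it was 0.0761% for day, 0.126% for age, 0.352% for capacitance, 0.0858% for the 20 Hz value, 0.422% for action potential duration and 0.0367% for slowing in OSMR-positive neurons. In OSMR-low neurons it was 0.122% for day, 0.657% for age and 0.151% for capacitance, and 1.19% for TRPM8. With no filter on low counts it was 0.0143% for day, 0.251% for capacitance, 0.126% for the 20 Hz value, 0.24% for action potential duration and 0.195% for slowing, and in OSMR-low neurons 0.0104% for age, 0.00678% for capacitance and 0.0448% for TRPM8. Sums of single cells gave 0.00545% for action potential duration. In OSMR-low neurons, DESeq2 size factors gave 0.0053% for age and 0.00514% for TRPM8, and cells of all days 0.0339% for age. For TRPM8 the share was 0.00592% at 20 CPM and 0.00512% at 100 CPM of OSMR, and 0.00515% without cells high in macrophage markers.

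Leaving out each animal in turn gave 0 to 0.00621% for age (above 0 without animal 5), 0 to 0.00553% for capacitance (animal 7), 0 to 0.00579% for the 20 Hz value (animal 4), 0 to 0.00549% for action potential duration (animal 7) and 0 to 0.0298% for slowing (animal 5). In OSMR-low neurons it gave 0 to 0.011% for age and 0 to 0.00491% for capacitance (animal 6 in both), and 0.00522 to 0.0479% for TRPM8 (highest without animal 3, and lower without animal 2, 4, 5, 6, 7 or 9).

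The animal paired the sums. Without that pairing (no replicate block) the share called was 5.04% between the classes, 0.0423% for TRPM8 and 0% elsewhere. GNA14 turned sign without the block for day (0.059) and for capacitance in OSMR-low neurons (-0.092), and OTOA for the 20 Hz value (0.51). No other sign turned and no call of the 6 genes changed.

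Signs turned as follows in differences that did not pass the test, in log2 units. For day, GNA14 was 0.11 and DIRAS3 0.032 with DESeq2 size factors, and by DESeq2 they were 0.12 and 0.032, with PTN at 0.000516. With OSMR-positive set at 20 CPM, GNA14 was 0.57, TRARG1 0.26 and PTN 0.23 for day, SLC66A3 -0.056 per week of age, GNA14 0.0018, TRARG1 0.35, OTOA 0.53 and SLC66A3 0.23 for the 20 Hz value, and OTOA 0.063 for slowing and -0.22 for capacitance in OSMR-low neurons. At 100 CPM, GNA14 was 0.12, TRARG1 0.016 and PTN 0.13 for day, GNA14 0.022 for age, PTN -0.11 for capacitance, OTOA 0.13 and PTN 0.016 for the 20 Hz value, and OTOA -0.19 for action potential duration and -0.34 for capacitance in OSMR-low neurons. Sums of single cells gave 0.10 for GNA14 and -0.072 for OTOA for day. Without the neurons with ADCYAP1, GNA14 was 0.014, TRARG1 0.010 and PTN 0.055 for day, GNA14 0.011 for age, GNA14 -0.045 and PTN -0.14 for capacitance, and for the 20 Hz value GNA14 was 0.036, DIRAS3 0.20, TRARG1 0.034, OTOA 0.26, SLC66A3 0.14 and PTN 0.13. Cells of all days gave slopes of -0.013 for TRARG1 and -0.046 for SLC66A3.

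With each animal left out, day gave -0.21 to 0.22 for GNA14, -0.49 to 0.17 for TRARG1, -0.40 to 0.076 for PTN and -0.20 to 0.56 for OTOA. Age gave -0.11 to 0.013 for GNA14, -0.038 to 0.088 for SLC66A3 and -0.024 to 0.17 for TRARG1. OTOA ran from -0.60 to 0.21 for the 20 Hz value, from -0.039 to 0.66 for action potential duration, from -0.61 to 0.24 for slowing and from -0.28 to 0.40 for capacitance in OSMR-low neurons.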

Other observations

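The genes were not tied to OSMR in every neuron. Of the 160 OSMR-low neurons, 3 had at least 200 CPM of GNA14, as did 13 of the 66 OSMR-positive neurons. In 2 of the 3, singled out after their values were seen, neither ADCYAP1 nor TRPM8 reached 50 CPM. They came from animals 4 and 7, both at 3 days in culture, with 2675160 and 492710 counts. GNA14 was at 365 and 278 CPM, DIRAS3 at 1114 and 623 CPM, TRARG1 at 335 and 304 CPM, OTOA at 23.9 and 18.3 CPM and SLC66A3 at 97.8 and 235 CPM, levels within or near the range of OSMR-positive neurons. PTN, at 74.4 and 83.2 CPM, was below the OSMR-low median of 269 CPM. OSMR was at 10.8 and 8.12 CPM, IL31RA at 0 and 6.09 CPM and SST at 0.374 and 4.06 CPM. Both neurons had LPAR3, a lysophosphatidic acid receptor gene (86.4 and 150 CPM), GFRA2, the neurturin receptor gene (104.7 and 192.8 CPM), and PIEZO2, the gene of a mechanically gated channel (104.7 and 105.5 CPM). Over all neurons, LPAR3 and GFRA2 both reached 50 CPM in 3, and these 2 were among them. Their capacitance values, 18.5 and 36.9, were below the OSMR-low median of 52.7. They are 2 cells, and no test was made.

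The 6 OSMR-positive neurons with under 50 CPM of IL31RA, from 4 animals, had medians of 49.3 CPM for DIRAS3, 14.4 CPM for SLC66A3 and 236 CPM for PTN, against 502, 284 and 1247 CPM in the 60 with IL31RA. All 6 had at least 20 CPM of ADCYAP1. They also had lower OSMR (median 72.9 against 301 CPM), lower total counts (491922 against 807033), and higher macrophage (359 against 18.9 CPM) and satellite glia markers (170.1 against 69.1 CPM), whose part in the lower levels was not tested.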
